A study of Homo sapiens with 102 samples.

Results

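The H3K4me2 and H3K36me2 ChIP libraries of siRNA-treated cells were 12 of the 102 libraries of the series. They were chosen by antibody and treatment: both marks in line HAC 1-20 and in line HAC 4-65, each after siControl, siKAT7 or siHJURP transfection, with 1 library per group. The cells were HT1080, a human fibrosarcoma line, and every group carried a human artificial chromosome (HAC) built from synthetic alphoid DNA. HAC 1-20 and HAC 4-65 are separate isolated lines that carry different, overlapping parts of the synthetic array, so each line stands for 1 chromosome. Each alphoid unit holds a short position code. Units named CenU contain CENP-B boxes, and in units named NCU these boxes are mutated. Reads were counted over 128 CenU codes and 384 names of the NCU type. Each library pooled 3 ChIP reactions before the PCR. Variation among reactions can therefore not be read from these counts, and no test was made within a line.

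CENP-A is the histone H3 variant that marks the active centromere. HJURP is the chaperone that deposits new CENP-A, and KAT7 (HBO1) is a MYST-family histone acetyltransferase that acts on H3K14 and on H4. H3K4me2 is a mark of open chromatin that is also found between CENP-A nucleosomes of human centromeres. H3K36me2 is made by the NSD family of methyltransferases and by ASH1L, and is found over broad chromatin domains. The paper cites ASH1L as a source of this mark that depends on CENP-B. The question asked of these libraries was how both methylation marks lie over the CENP-A dense and sparse parts of the array when either factor is depleted. The transcripts or proteins of KAT7 and HJURP were not analysed here.

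The position codes below are those on which the H3K36me2 and H3K4me2 results turn. Capitals mark the bases that vary in the design: base 4, counted from 1 at the 5′ end, and the pairs at bases 9 and 10, 14 and 15, and 19 and 20. In HAC 1-20 the H3K36me2 share was above siControl after both depletions on T112, T077 and T075 and below it on T109. In HAC 4-65 it was above siControl on T048 after siKAT7 and below it on T008 after both. The H3K4me2 share of T096 was above siControl after both depletions in HAC 1-20. NCU 096 is shown beside CenU 096 because the pair differs only by G4C.
CenU 112 (T112): gggGaaaaTGcccCGtttCGggg
CenU 077 (T077): gggGaaaaTAcccCAtttCAggg
CenU 075 (T075): gggGaaaaTAcccGGtttGGggg
CenU 048 (T048): gggGaaaaAGcccCCtttCCggg
CenU 109 (T109): gggGaaaaTGcccCAtttCAggg
CenU 008 (T008): gggGaaaaAAcccTCtttTCggg
CenU 096 (T096): gggGaaaaTTcccCCtttCCggg
NCU 096 (L096): gggCaaaaTTcccCCtttCCggg

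The codes shown are 23 bases long. CenU 093 and CenU 094, which both lines carry, are listed with sequences of 67 bases. The CenU and NCU codes of the same number differed at 1 base in 92 of 96 pairs, and the closest CenU codes also differed at 1 base, so a single sequencing error can move a read from one code to another. The GC content of a code was weakly related to the change of its share, with Pearson's r between −0.18 and 0.15 over 60 codes of HAC 1-20 and 74 of HAC 4-65.

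Matched reads per library ranged from 5590 to 965882, with a median of 301776. Unmatched reads were 6.09% to 10.1% of each library, and 0.0894% to 0.757% of CenU reads fell on codes that the construct of the line lacks. The shallowest of the 12 libraries was H3K4me2 after siHJURP in HAC 4-65. It had 1772 CenU reads and a median of 14 reads per carried code, and 75 of its 75 carried codes had under 100 reads. The H3K4me2 siControl library of HAC 4-65 had 8100 CenU reads and a median of 61. The expected counting SD of the log2 change of a code between these libraries was 0.45. It was 0.040 for H3K36me2 after siHJURP in HAC 1-20. The untreated H3K36me2 library of HAC 1-20, used below for comparison and for the order by CENP-A, was also shallow. It had 2977 CenU reads and a median of 39 per carried code, and 53 of 61 carried codes had under 100 reads. Its counting SD against siControl was 0.23. The untreated H3K9me3 library of that line, used for the order, had 1462 CenU reads.

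A line was taken to carry a code whose share of CenU reads had a median of 0.1% or more across its libraries. This gave 61 codes in HAC 1-20 and 75 in HAC 4-65. The paper found only some codes of each line to be single copy, and the reads of a code with several copies pool its sites. Carried codes were ordered by CENP-A density, which is the log2 CENP-A reads of untreated cells minus the mean log2 reads of the 6 histone marks of untreated cells. The highest and the lowest part, 1 in 3 of the codes each, are called dense and sparse: 20 and 20 codes in HAC 1-20, and 25 and 25 in HAC 4-65. None of the 12 libraries was used for this order. The untreated H3K4me2 and H3K36me2 libraries were. The last dense code of HAC 1-20 was T113 at 0.55 and the next code T084 at 0.53, and in HAC 4-65 these were T050 at 0.95 and T078 at 0.92.

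CenU reads against NCU reads compare the CENP-B box array with the rest of the synthetic DNA. CenU codes held 36.5% of H3K4me2 reads in siControl cells of HAC 1-20, 34.7% after siKAT7 and 30.4% after siHJURP. The order was the opposite in HAC 4-65, with 28.1%, 30.5% and 31.7%. For H3K36me2 the CenU share was 53.9%, 60.1% and 56.9% in HAC 1-20, and 45.3%, 51.1% and 56.1% in HAC 4-65. It was thus higher after both depletions in both lines.

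The log2 ratio of CenU over NCU reads of H3K36me2 was above siControl by 0.37 (95% counting interval 0.35 to 0.39) after siKAT7 and by 0.17 (0.16 to 0.18) after siHJURP in HAC 1-20. In HAC 4-65 it was above by 0.34 (0.31 to 0.37) and 0.63 (0.62 to 0.64). For H3K4me2 the differences were −0.12 (−0.13 to −0.10) and −0.40 (−0.41 to −0.38) in HAC 1-20, and 0.17 (0.13 to 0.21) and 0.25 (0.16 to 0.34) in HAC 4-65. These intervals cover counting error only, and reads of 1 PCR are not independent molecules. The step from untreated to siControl cells, which involves no depletion, was −0.017 and 0.60 for H3K4me2 and −0.22 and −0.061 for H3K36me2, with HAC 1-20 given first. The H3K4me2 differences of HAC 4-65 and the siHJURP difference of H3K36me2 in HAC 1-20 were therefore smaller than a step without depletion. Against untreated cells that last difference was −0.053, of opposite sign. Higher ratios than in siControl were not particular to H3K36me2. After siKAT7 and siHJURP in HAC 4-65 the differences were 0.50 and 0.49 for CENP-A and 0.96 and 1.13 for H3K9me3. They were 0.52 and 0.38 for H4K8ac, 0.061 and 0.023 for H3K14ac, and −1.09 and 0.88 for H4K20me1. In HAC 1-20 CENP-A gave 0.55 and 0.47, H3K9me3 0.21 and 0.35, and H4K8ac −0.42 and −0.60. H3K14ac gave −0.49 and −0.75 there, and H4K20me1 0.0072 and −0.78.

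**Figure D1:**
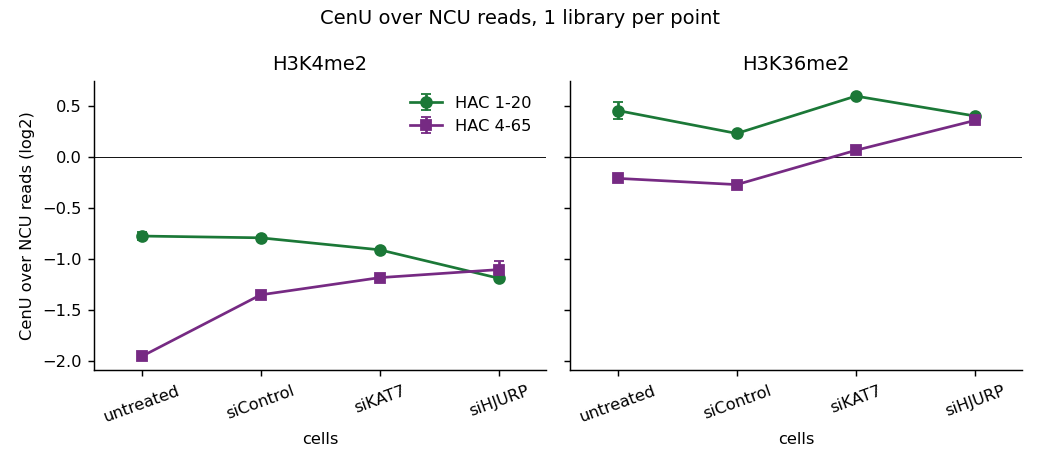
Log2 ratio of CenU over NCU reads (y axis) in untreated, siControl, siKAT7 and siHJURP cells (x axis) for H3K4me2 and H3K36me2, 1 library per point, with 95% counting intervals as bars where they exceed the symbol. H3K36me2 lies above siControl after both depletions in both lines, while H3K4me2 lies below it in HAC 1-20 and above it in HAC 4-65.

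The distribution of H3K36me2 within the CenU array differed most in HAC 1-20. Dense codes held 13.8% of the CenU reads in siControl cells, 22.9% after siKAT7 and 26.1% after siHJURP. Sparse codes held 51.4%, 41.8% and 38.4%. In HAC 4-65 dense codes held 9.33%, 12.7% and 10.4%, and sparse codes 48.3%, 43.6% and 45.7%. The share of dense codes was thus above siControl in all of these 4 comparisons, and by the smallest step after siHJURP in HAC 4-65.

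Per code, the median log2 change of share in HAC 1-20 after siKAT7 was 0.75 (0.61 to 0.92) on dense codes and −0.36 (−0.48 to −0.062) on sparse codes, where the range is the 95% order-statistic interval over codes. All 20 of 20 dense codes were higher, and 17 of 20 sparse codes were lower. After siHJURP the medians were 1.01 (0.65 to 1.30) and −0.43 (−0.51 to −0.23), with 20 of 20 dense codes higher and 19 of 20 sparse codes lower. Dense minus sparse was 1.11 (0.68 to 1.39) and 1.44 (0.88 to 1.80), or 2.17-fold and 2.71-fold. The step from untreated to siControl cells gave 0.091 (−0.55 to 0.69) with the same codes. Here and below, the range of a dense minus sparse value joins the limits of the dense and sparse medians. It runs from the lower dense minus the upper sparse limit to the upper dense minus the lower sparse limit. Such a range is wider than a 95% interval of the difference would be.

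In HAC 4-65 the medians after siKAT7 were 0.44 (0.34 to 0.62) on dense and −0.16 (−0.23 to −0.037) on sparse codes, with 24 of 25 dense codes higher and 19 of 25 sparse codes lower. After siHJURP they were 0.094 (0.010 to 0.23) and −0.061 (−0.18 to 0.0033), with 19 of 25 higher and 17 of 25 lower. Dense minus sparse was 0.61 (0.38 to 0.85) after siKAT7 and 0.16 (0.0070 to 0.42) after siHJURP, against −0.00083 from untreated to siControl cells. The order of the depletions thus differed between the lines. Set against each other, siHJURP minus siKAT7 was 0.22 (0.045 to 0.70) in HAC 1-20, whereas HAC 4-65 gave −0.41 (−0.62 to −0.045). The H3K36me2 siKAT7 library of HAC 4-65 was the shallower of these, with a median of 159 reads per carried code. Codes are not replicates of a condition, and with 2 lines an exact test by sign changes cannot go below p = 0.5.

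Across all carried codes, the change of H3K36me2 followed CENP-A density with Pearson's r = 0.74 after siKAT7 and 0.77 after siHJURP over 61 codes of HAC 1-20, and 0.69 and 0.40 over 75 codes of HAC 4-65. These are descriptions, since codes of 1 library share its reads and codes of neighbouring number were neighbours in the input DNA. The SD of the change over carried CenU codes was 0.59 and 0.74 in HAC 1-20, beside 0.43 and 0.48 over NCU codes of the same libraries. In HAC 4-65 it was 0.35 and 0.27, beside 0.31 and 0.33. The scatter over CenU codes was thus above that over NCU codes in HAC 1-20 and near it in HAC 4-65.

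**Figure D2:**
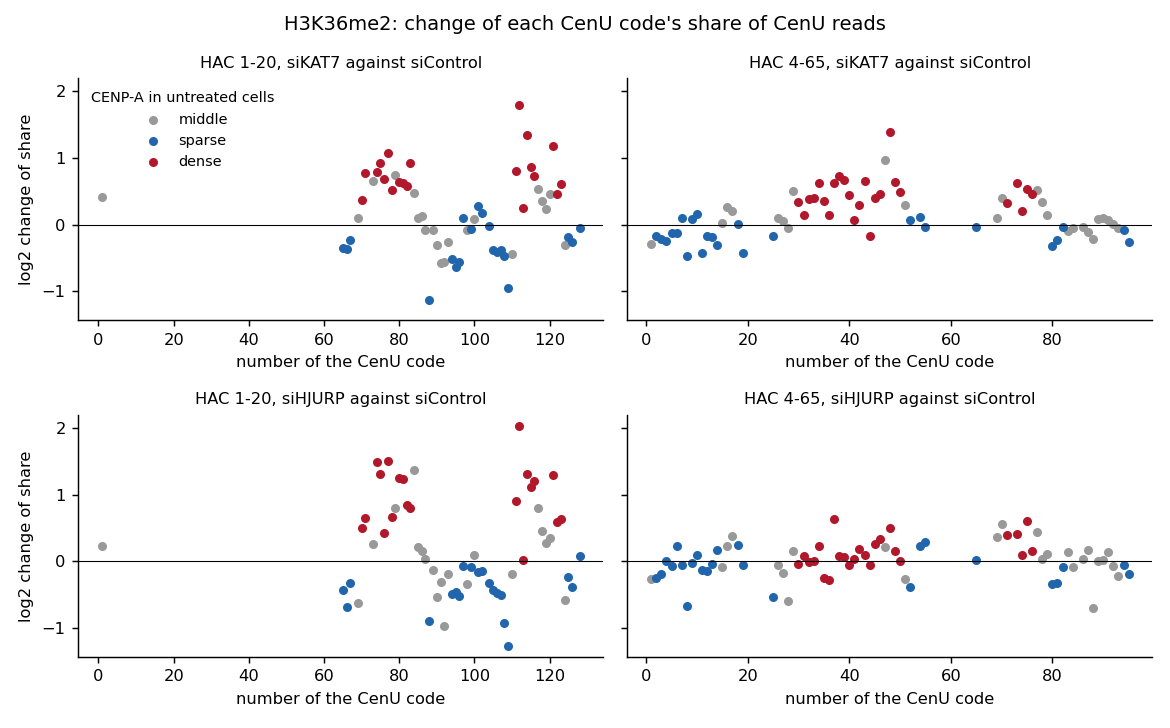
Log2 change of the share of each carried CenU code among the CenU reads of H3K36me2 (y axis) against the number of the code (x axis), after siKAT7 (top) or siHJURP (bottom) against siControl, in HAC 1-20 (left) and HAC 4-65 (right). Red points are dense, blue sparse and grey other codes by CENP-A of untreated cells, and in HAC 1-20 the dense codes lie above 0 in 2 stretches, T070 to T083 and T111 to T123.

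The higher codes formed stretches by code number. The paper reports that the HAC DNA was rearranged against the input DNA, so code number need not be the order on the chromosome. In HAC 1-20, 13 of 13 carried codes from T070 to T083 were higher after both depletions, with medians of 0.68 and 0.80, and so were 13 of 13 from T111 to T123, with 0.61 and 0.80. Between them by number, T094 to T110 had medians of −0.38 and −0.39, with 12 and 15 of 16 codes lower. In HAC 4-65, 20 of 21 codes from T030 to T050 were higher after siKAT7 and 15 after siHJURP, with medians of 0.44 and 0.073, and 5 of 5 codes from T071 to T076 were higher after both, with 0.46 and 0.39. T002 to T014 had medians of −0.17 and −0.061. The stretch T071 to T076, which both lines carry, thus had a higher H3K36me2 share in both lines and after both depletions.

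T112, a dense code of HAC 1-20, had the largest H3K36me2 difference. Its share was 0.605% of CenU reads in untreated cells, 0.313% in siControl, 1.08% after siKAT7 and 1.27% after siHJURP, a log2 change of 1.79 (counting interval 1.63 to 1.96) and 2.03 (1.89 to 2.16). The untreated value rests on 18 reads. After siKAT7 the next codes were T114 at 1.34 and T121 at 1.18, and after siHJURP T077 at 1.51 and T074 at 1.48. All of them are dense codes.

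T109, a sparse code close to T112 by number, was the lowest of the codes with at least 100 reads. Its H3K36me2 share was 2.98% in siControl, 1.55% after siKAT7 and 1.24% after siHJURP, a log2 change of −0.94 (−1.05 to −0.84) and −1.27 (−1.33 to −1.20). The next lowest codes were T095 at −0.64 and T091 at −0.58 after siKAT7, and T092 at −0.97 and T108 at −0.93 after siHJURP.

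In HAC 4-65 the highest code after siKAT7 was T048, at 0.282% in siControl and 0.737% after siKAT7, a log2 change of 1.39 (1.13 to 1.65). It was followed by T047 at 0.97 and T073 at 0.63. After siHJURP T037 was highest at 0.63, followed by T075 at 0.60 and T070 at 0.56. T008 was lowest after siKAT7, at −0.47 (−0.74 to −0.21), and second lowest after siHJURP, at −0.66 (−0.73 to −0.59), below only T088 at −0.70.

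A change of at least 2-fold was counted in place of a test. For H3K36me2 in HAC 1-20, 4 of 61 carried codes (6.56%) were at least 2-fold higher after siKAT7 and 11 (18%) after siHJURP, and 4 of these 4 and 10 of these 11 were dense. In each case 1 code (1.64%) was at least 2-fold lower, T088 after siKAT7 on 31 reads and T109 after siHJURP, both sparse. In HAC 4-65 1 of 75 (1.33%), the dense code T048, was higher after siKAT7 and 0 were lower, and after siHJURP 0 were past 2-fold either way.

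The test across both lines used the codes that both carry, 27 CenU and 95 NCU codes, with the line as a block (edgeR quasi-likelihood, Benjamini-Hochberg adjustment over all 122). For H3K36me2 after siKAT7, 3 of 122 codes (2.46%) passed, all CenU and all higher: T077 at a log2 fold change of 1.08 ± 0.28 (SE, adjusted p = 0.0148), T075 at 1.02 and T073 at 0.93. After siHJURP 8 of 122 (6.56%) passed. The 6 CenU codes among them rose: T077 by 1.32 ± 0.27 (adjusted p = 0.000237), T075 by 1.30 ± 0.28 (adjusted p = 0.000237), T074 by 1.14, T084 by 1.00, T070 by 0.88 and T071 by 0.88. The NCU codes L056 and L076 fell by 1.26 and 1.08 on the log2 scale.

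Of the called CenU codes, T070 to T077 lie in or next to the stretch T071 to T076, whose 5 carried codes are all dense in HAC 4-65. Only 4 of the shared CenU codes were dense in both lines. T077 held 0.526%, 1.10% and 1.50% of CenU reads in siControl, siKAT7 and siHJURP cells of HAC 1-20, and 0.677%, 0.966% and 0.916% in HAC 4-65. T075 held 0.503%, 0.949% and 1.25%, and 0.444%, 0.642% and 0.671%. T084 had 0.624% in siControl and 1.62% after siHJURP in HAC 1-20, but 3.20% and 3.03% in HAC 4-65. The calls are relative to a centre set mostly by NCU codes: the median log2 fold change was 0.43 and 0.64 over the CenU codes and −0.066 and −0.099 over the NCU codes. With the CenU codes alone, scaled to their own sum, 0 of 27 passed in either depletion (edgeR, 3 at an unadjusted p under 0.05 in each), so the test does not show a redistribution within the array. It also called 0 of 122 after either depletion without the HAC 1-20 siControl library and without the siKAT7 library of HAC 1-20 or of HAC 4-65. Without the HAC 4-65 siControl library it called 0 after siKAT7 and 6 after siHJURP.

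The change of H3K4me2 over the CENP-A classes differed in sign between lines and depletions. Dense codes held 32.1% of CenU reads in siControl cells of HAC 1-20, 31.1% after siKAT7 and 28.1% after siHJURP. In HAC 4-65 they held 13.0%, 18.0% and 15.9%. The dense share after both depletions thus lay below siControl in HAC 1-20 and above it in HAC 4-65. Sparse codes held 28.5%, 27.6% and 34.0% in HAC 1-20, and 38.3%, 34.6% and 38.0% in HAC 4-65. In HAC 1-20 the dense over sparse ratio of reads was 1.13 both in siControl and after siKAT7.

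In HAC 1-20 dense minus sparse was 0.072 (−0.83 to 0.73) after siKAT7 and −0.36 (−1.05 to 0.20) after siHJURP. In HAC 4-65 it was 0.64 (−0.040 to 0.98) and 0.48 (−0.55 to 1.06). All 4 intervals include 0, and the step from untreated to siControl cells gave 0.28 and −0.47. The siHJURP value of HAC 4-65 comes from the shallow library. It turned to −0.20 against untreated cells, where the siKAT7 value of HAC 4-65 was 0.027, and the siKAT7 value of HAC 1-20 turned to −0.17 with codes split at the median density. After siHJURP 15 of 20 dense codes of HAC 1-20 were lower, with a median of −0.15 (−0.41 to −0.028), and after siKAT7 19 of 25 dense codes of HAC 4-65 were higher, with a median of 0.50 (0.11 to 0.65).

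In HAC 1-20, the codes with the highest H3K4me2 change were T096, T128 and T098 after both depletions, which share the siControl library. T096, a sparse code, held 1.34% in untreated cells, 0.720% in siControl, 2.25% after siKAT7 and 1.77% after siHJURP. Its log2 change was 1.64 (1.50 to 1.78) and 1.30 (1.16 to 1.43). T128 was at 1.28 and 1.09 and T098 at 1.11 and 1.01. The siControl share of T096 was below that of untreated cells as well as below those after depletion.

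The lowest H3K4me2 codes after siKAT7 were T105 at −2.07 and T108 at −1.56. The next, T124, had 2.31% in siControl and 1.15% after siKAT7. T105 held 2.20% in siControl, 0.523% after siKAT7 and 1.88% after siHJURP. T109 lies in the same stretch and fell outside the rule for named codes because of its 74 reads after siKAT7. It was singled out after its values were seen, at 1.32% in siControl and 0.0776% after siKAT7, a log2 change of −4.08. After siHJURP T069 was lowest at −1.49, followed by T108 at −1.13 and T070 at −1.10.

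**Figure D3:**
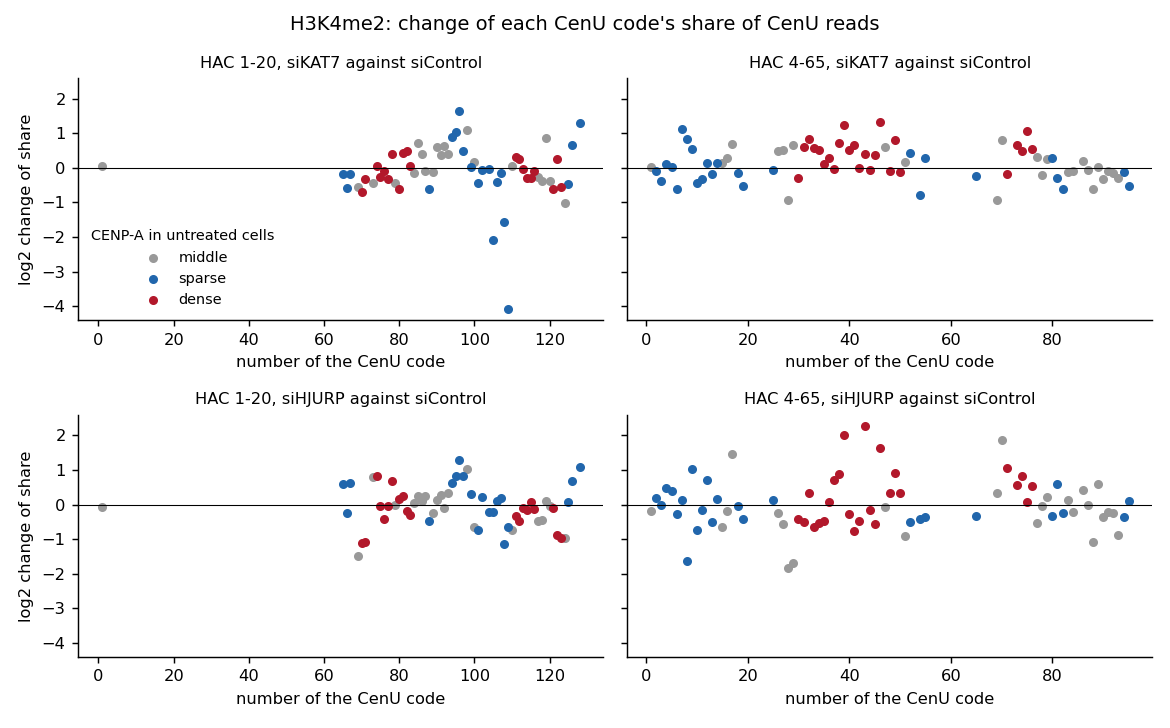
Log2 change of the share of each carried CenU code among the CenU reads of H3K4me2 (y axis) against the number of the code (x axis), after siKAT7 (top) or siHJURP (bottom) against siControl, in HAC 1-20 (left) and HAC 4-65 (right), with colours by CENP-A class. Dense and sparse codes lie on both sides of 0 in all 4 panels, and T109, T105 and T108 lie lowest after siKAT7 in HAC 1-20.

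In HAC 4-65 22 carried codes had 100 or more H3K4me2 reads in both the siControl and the siKAT7 library. Among these the change ran from −0.61 (−0.77 to −0.46) for T082 to 0.28 (−0.012 to 0.56) for T080. After siHJURP no code had 100 reads, and none is named. At least 2-fold higher H3K4me2 was counted for 4 of 61 codes (6.56%) after siKAT7 and 3 (4.92%) after siHJURP in HAC 1-20, and 4 of 61 (6.56%) were at least 2-fold lower after each. In HAC 4-65 4 of 75 (5.33%) were higher and 0 lower after siKAT7, and 7 (9.33%) higher and 4 (5.33%) lower after siHJURP, where the counting SD of a code was 0.45. Over both lines 0 of 122 codes (0%) passed for H3K4me2 after either depletion by edgeR, with 1 and 2 codes at an unadjusted p under 0.05. DESeq2 called 2 and 1, none of them CenU.

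The balance of the marks was taken per code as the log2 ratio of its H3K4me2 share over its H3K36me2 share. Both shares came from the same line and condition, so the copy number of the code cancels. The ratio does not separate the sites of a code with several copies. In siControl cells of HAC 1-20 the median balance was 1.34 (0.95 to 1.52) on dense codes and −0.80 (−1.17 to −0.39) on sparse codes. Of the 20 dense codes 19 lay above the highest sparse code. After siKAT7 the medians were 0.36 (−0.096 to 0.76) and −0.61 (−1.07 to −0.48), and after siHJURP 0.066 (−0.12 to 0.30) and −0.13 (−0.47 to 0.029). The number of dense codes above the highest sparse code was 0 after either, and that code was T095, at 1.47 and 1.09. Above the sparse median lay 20 of 20 dense codes in siControl, 20 after siKAT7 and 15 after siHJURP.

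Dense minus sparse was thus 2.14 (1.34 to 2.69) in siControl, 0.97 (0.38 to 1.83) after siKAT7 and 0.20 (−0.15 to 0.77) after siHJURP, and 2.16 (1.56 to 2.48) in untreated cells. The balance of dense codes was below siControl in 20 of 20 codes after siKAT7 and 19 of 20 after siHJURP. Its median shift was −0.96 and −1.29, of which H3K4me2 had a median change of −0.084 and −0.15 and H3K36me2 one of 0.75 and 1.01. The SD of the balance over the 61 codes was 1.06 in siControl, 0.94 after siKAT7 and 0.55 after siHJURP, and Pearson's r with density was 0.76, 0.58 and 0.25.

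In HAC 4-65 dense minus sparse was 0.97 (0.60 to 1.27) in siControl, 0.94 (0.31 to 1.35) after siKAT7 and 0.98 (0.52 to 1.71) after siHJURP. It was 1.52 (0.73 to 2.22) in untreated cells. With classes from the CENP-A density of siControl cells, whose CENP-A library had only 1494 matched reads, the siControl, siKAT7 and siHJURP values were 0.91, 0.58 and 0.87. The balance was below siControl in 10 and 12 of 25 dense codes. The median balance of dense codes was 0.40, 0.43 and 0.64, and that of sparse codes −0.57, −0.51 and −0.34. The difference between the lines was not tested.

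**Figure D4:**
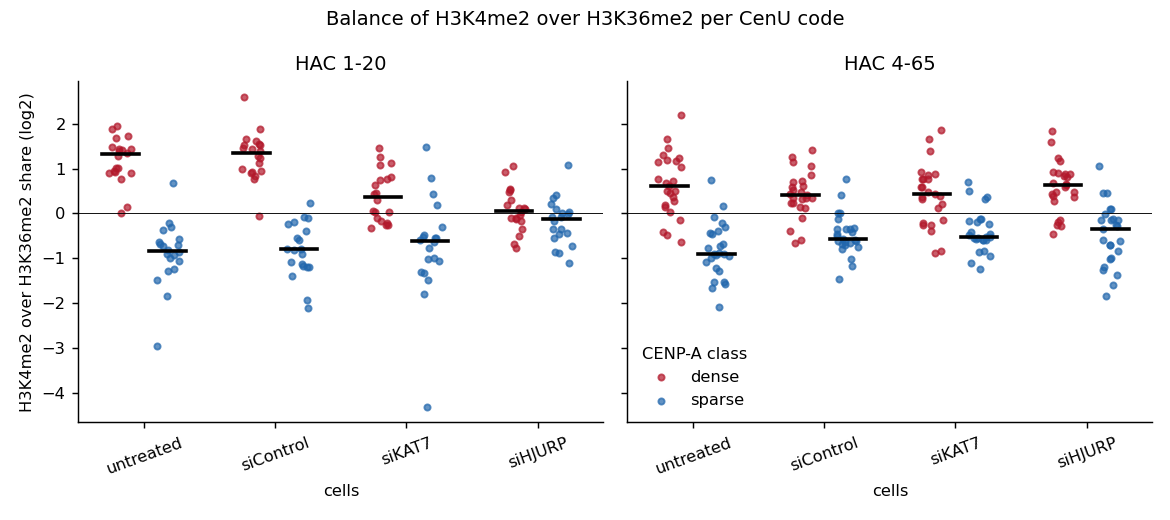
Log2 ratio of the H3K4me2 share over the H3K36me2 share per CenU code (y axis) in untreated, siControl, siKAT7 and siHJURP cells (x axis) of each line, with dense codes in red, sparse codes in blue and medians as black bars. In HAC 1-20 the dense and sparse medians lie 2.14 apart in siControl and 0.20 apart after siHJURP, and in HAC 4-65 they lie 0.97 and 0.98 apart.

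The code T112 had the highest balance in siControl cells of HAC 1-20, 2.60, followed by T079 at 2.18 and T076 at 1.88. T112 was at 1.08 after siKAT7 and 0.090 after siHJURP. T079, which is in the middle class, was at 0.99 and 1.36, so its share of H3K4me2 reads stayed above its share of H3K36me2 reads. The lowest were T128 at −2.11, T126 at −1.93 and T096 at −1.40. T096 was at 0.80 after siKAT7 and 0.42 after siHJURP. In HAC 4-65 the highest code of siControl cells was T095 at 0.77 and the lowest T005 at −0.75, among 22 codes with enough reads.

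The other antibodies of the same cells were set beside both marks. H3K9me3, the heterochromatin mark, also had a higher share on dense codes of HAC 1-20, with dense minus sparse of 0.86 (0.38 to 1.22) after siKAT7 and 1.07 (0.64 to 1.57) after siHJURP. CENP-A was at −0.84 (−1.27 to 0.52) and −0.81 (−1.43 to 0.13). Over the 61 codes the change of H3K36me2 followed that of H3K9me3 with r = 0.73 and 0.76, and that of H3K4me2 with r = 0.077 and −0.025. These pairs share the codes but no library. In HAC 4-65 H3K9me3 was at 0.26 (0.025 to 0.40) and −0.021 (−0.29 to 0.35), and its r with H3K36me2 over 75 codes was 0.21 and 0.20. CENP-A in HAC 4-65 was at 0.84 (0.25 to 1.49) after siKAT7 and 0.24 (−0.63 to 1.02) after siHJURP, of opposite sign to HAC 1-20. The CENP-A siControl library of HAC 4-65 had 1494 matched reads, so the CENP-A values of that line rest on few reads. After siKAT7 in HAC 4-65 dense minus sparse was also above 0 for H4K8ac, at 0.52 (0.30 to 0.81), and for H3K14ac, at 0.46 (−0.72 to 1.32). H4K20me1 was at −0.98 (−1.68 to −0.75). After siHJURP H4K8ac was at 0.31 and H4K20me1 at 0.75, with ranges that include 0. In HAC 1-20 H3K14ac was at 0.034 and 0.056, H4K8ac at 0.089 and −0.41, and H4K20me1 at 0.0029 and −0.35. The H3K14ac siHJURP library of HAC 4-65 stood apart, at −3.08 (−4.80 to 1.70). It had an SD of 2.76 over the changes of its CenU codes.

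**Figure D5:**
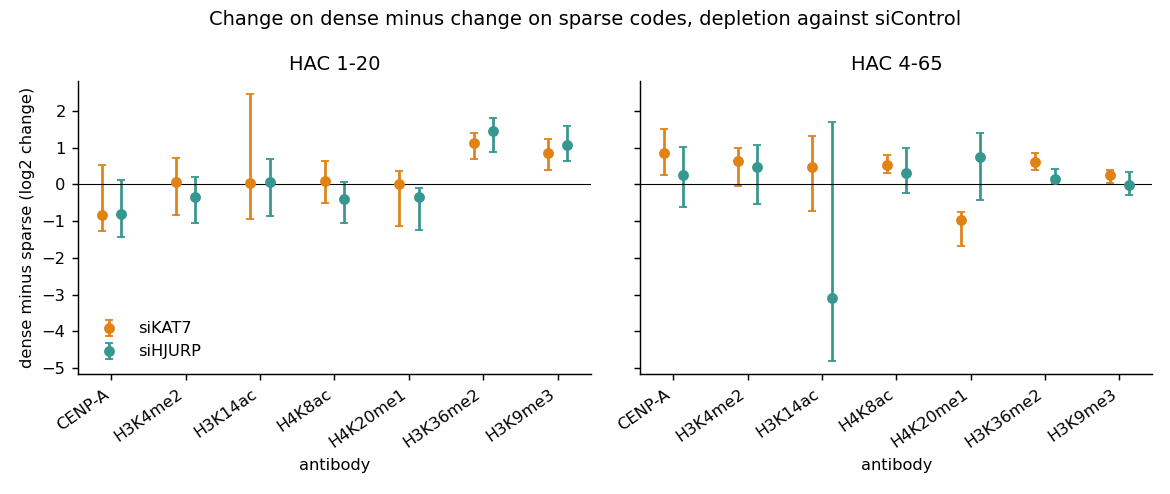
Median log2 change on dense codes minus that on sparse codes (y axis) for CENP-A and 6 histone marks (x axis) after siKAT7 (orange) and siHJURP (teal) against siControl in HAC 1-20 (left) and HAC 4-65 (right). Bars join the limits of the 95% order-statistic intervals of the dense and sparse medians and are wider than a 95% interval of the difference. In HAC 1-20 H3K36me2 and H3K9me3 lie above 0 after both depletions, and the bars of H3K4me2 include 0 in both lines.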

How the data were processed

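Chromatin of formaldehyde-fixed cells was immunoprecipitated with antibodies to H3K4me2 or H3K36me2, and position codes were amplified with common primers in a competitive PCR. The authors trimmed reads with cutadapt 4.0, matched them to the codes with Bowtie and deposited the read counts per code from SAMtools, not normalised. T codes were taken as CenU and L codes as NCU. This reading is an inference from how many codes each kind has and which kind the CENP-A libraries read most. The primers listed for CenU 001 and CenU 072 carry each other's listed code, so those names may be exchanged. Position codes come from the study's list of designed sequences.

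Groups came from the labels. Shares, CenU over NCU ratios and changes were computed with a pseudocount of 0.5 in Python 3.11.15 (numpy 2.4.6, pandas 2.3.3, SciPy 1.17.1). Named codes were the 3 highest and the 3 lowest with at least 100 reads in both libraries, and the CenU codes that passed the test. The test over lines used edgeR 4.0.16 in R 4.3.3 with TMM scaling, an adjusted p threshold of 0.05 and 2 residual degrees of freedom. DESeq2 1.42.0 was an alternative. Scripts were tested on simulated data. The members, classes and lists were chosen with earlier results of these data known. Pooled ChIP reactions leave p-values to measure only how far differences between treatments disagree between the 2 lines, with that spread shared over codes. Counting intervals cover counting error only.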

Additional observations from a re-analysis of the deposited data

Results flagged for a closer look

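Some effects had opposite signs in the lines. These differences between lines were not tested. The log2 change of CenU over NCU reads of H3K4me2 was −0.12 in HAC 1-20 and 0.17 in HAC 4-65 after siKAT7, and −0.40 and 0.25 after siHJURP. Dense minus sparse of H3K4me2 after siHJURP was −0.36 in HAC 1-20 and 0.48 in HAC 4-65, where the second value comes from the shallow library. The dense minus sparse mark balance after siHJURP moved by −1.94 in HAC 1-20 and by 0.0023 in HAC 4-65.

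Reads also fell on the 288 names L097 to L384, for which no NCU code is listed. Their share of NCU reads was above that of siControl of the same line and mark in 4 of 8 libraries of depleted cells. It was 0.756% for H3K36me2 after siKAT7 in HAC 1-20, against 0.594% in siControl. In HAC 4-65 it was 0.246% and 0.367% for H3K4me2 after siKAT7 and siHJURP, against 0.227%, and 0.286% for H3K36me2 after siHJURP, against 0.272%. The shallow library has 14 such reads.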

How the results depend on the processing

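Dense minus sparse of H3K36me2 kept its direction in every setting tried: other classes, pseudocounts, read minimums, codes of 1 line and untreated control cells. The untreated libraries of both marks also entered the class order, so the last setting is not independent of the classes. Dense minus sparse of H3K36me2 ran from 0.91 to 1.22 after siKAT7 and 1.16 to 1.47 after siHJURP in HAC 1-20. In HAC 4-65 it ran from 0.49 to 0.64 and from 0.13 to 0.24. Dense minus sparse mark balance in siControl, siKAT7 and siHJURP cells ran from 1.62 to 2.14, 0.70 to 1.04 and 0.13 to 0.28 in HAC 1-20, and from 0.81 to 1.02, 0.58 to 0.94 and 0.76 to 1.31 in HAC 4-65, with the highest siHJURP value at a pseudocount of 5. For H3K4me2, dense minus sparse turned to −0.049 with density from siControl and −0.17 with a split at the median density (siKAT7, HAC 1-20), and to −0.0059 with codes of 1 line and −0.20 with untreated cells as control (siHJURP, HAC 4-65). With untreated cells as control the siKAT7 value of HAC 4-65 was 0.027. The cause was not tested.

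With untreated cells as control, added after the data were seen for the counts of codes, CenU over NCU was −0.13, −0.41, 0.14 and −0.053 (H3K4me2, then H3K36me2, siKAT7 then siHJURP) in HAC 1-20, the last of opposite sign, and 0.77, 0.85, 0.28 and 0.57 in HAC 4-65. Codes past 2-fold were then 14, 12, 9 and 20 in HAC 1-20, and 8 and 17 for H3K4me2 in HAC 4-65. The untreated H3K36me2 library behind the counts of 9 and 20 had a median of only 39 reads per carried code. Over NCU reads they were 11 (H3K4me2, siHJURP) and 15 (H3K36me2, siKAT7) in HAC 1-20, and 4 and 8 for H3K36me2 in HAC 4-65. With a pseudocount of 5, 0 and 2 codes were past 2-fold after siKAT7 in HAC 4-65 for H3K4me2 and H3K36me2. With at least 20 reads, 5 were for H3K4me2 after siHJURP.

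Over both lines, DESeq2 called 2 and 1 codes for H3K4me2, and 2 and 9 for H3K36me2. For H3K36me2, CenU codes alone and every code with a read gave 0 and 0. Leaving out each library in turn gave 0 to 7 after siKAT7 and 0 to 8 after siHJURP for H3K36me2, and 0 to 0 for H3K4me2. A lone library is then assumed to vary like the others. No paired analysis was possible because each group has 1 library and the labels give no shared replicate number; the line was already a block. Depth limits H3K4me2 in HAC 4-65 most.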
